A study of Mus musculus with 2 samples.

Results

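The genes described here run the first decision of the cell cycle in mouse CD4 T cells: the D cyclins Ccnd1, Ccnd2 and Ccnd3, their kinases Cdk4 and Cdk6, the pocket proteins Rb1 and Rbl1, and the transcription factors E2f1, E2f2 and E2f3. They and the gene lists described further on were chosen by name, with earlier results of these data known. Their probes were found by matching the transcript accession of each probe to RefSeq. Of the 10 genes, 9 had a named probe, with 16 probes on 34 spots, among 18434 named genes and 41174 different probes in all. No probe matched Ccnd1, so it was not analysed here.

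A D cyclin binds CDK4 or CDK6 when a cell receives growth signals, and the active kinase phosphorylates the retinoblastoma protein RB and its relative p107, the product of Rbl1. Unphosphorylated pocket proteins hold E2F factors and keep S phase genes silent, and phosphorylation releases them. In T cells, stimulation through the antigen receptor and IL-2 induces cyclins D2 and D3, whereas cyclin D1 is best known from other tissues. Menin, the product of Men1, works with MLL histone methyltransferases in transcription.

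The study compared 1 array of Menin KO cells with 1 array of Menin WT cells. In both, naive CD4 T cells from the spleens of female C57BL/6J mice were stimulated for 2 days with antibody to T cell receptor beta (3 µg/ml) and to CD28 (1 µg/ml) while IL-2 was kept at 2.5 ng/ml. They then spent 3 more days in IL-2. The age and number of the mice and the way Menin was removed are not given in the sources used here. The probe of Men1 had a signal of 459 in Menin KO cells and 1081 in Menin WT cells, and whether it lies inside the deleted part is not known here. Bach2, which the series title pairs with Menin, had 604 in Menin KO cells and 4643 in Menin WT cells.

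With 1 array per genotype nothing could be tested, and no difference carries a p-value. Each value is a processed signal (background-subtracted intensity, linear scale), and each difference is the log2 signal of Menin KO minus that of Menin WT after scaling each array to its 75th percentile (650.3 in Menin KO, 644 in Menin WT). Signals of different probes depend on the probe. They were set against each other only in sums over cell marker lists, in choosing a gene's brightest probe, and in calling probes or genes bright or dim. The scanner software's own error of a signal, carried into the log2 difference, was 0.20 to 0.22 for the 15 member probes that were well above background on both arrays. Bright repeat spots of 1 probe scattered less than this and dim ones more, with a pooled SD of 0.0562 for the log2 difference at signals of 100 or more (112 probes) and 0.32 at dimmer signals (34 probes). Neither error holds differences between mice or cultures.

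Among the 9 genes, Ccnd2, Ccnd3 and Cdk6 had a log2 difference above 0 by their brightest probe, and Cdk4, Rb1, Rbl1, E2f1, E2f2 and E2f3 below 0. The only gene at least 2-fold apart was Rbl1, 2.45-fold lower in Menin KO cells. The other 8 lay between the 2-fold limits, and none was at least 2-fold higher. Across the 13510 named genes with a value, 15.9% were at least 2-fold apart, 10.8% higher and 5.14% lower in Menin KO cells, and 1 lower gene among 9 is not read as a result about the members. The median log2 difference of the 9 genes was -0.27, with 6 below 0, beside a median of -0.01 over all named genes, of which 50.5% were below 0. In RNA from a whole culture, fewer cells that express a gene and less RNA per cell cannot be told apart.

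**Figure D1:**
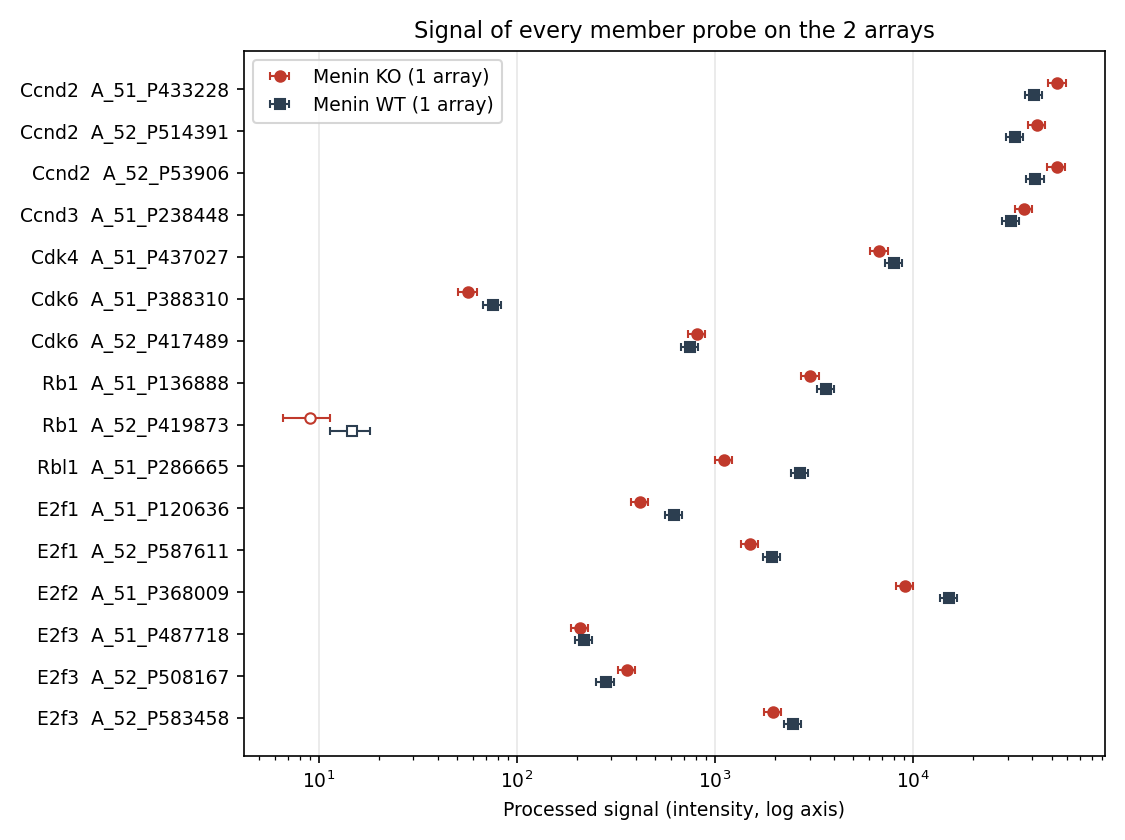
Processed signal (log axis) of each probe of the 9 genes on the Menin KO array (circles) and the Menin WT array (squares), with the scanner software's error as bars and open symbols where the probe was not well above background. The widest gap among filled symbols is that of Rbl1, 1108 in Menin KO cells and 2691 in Menin WT cells.

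Both measured D cyclins gave strong signals on both arrays. Ccnd2 encodes cyclin D2, the D cyclin that lymphocytes induce early after stimulation, and 3 probes read it. The first, A_51_P433228, had a signal of 53536 in Menin KO cells and 40808 in Menin WT cells. The second, A_52_P514391, had 42214 in Menin KO cells and 32700.1 in Menin WT cells. The third, A_52_P53906, had 53000.3 in Menin KO cells and 41434 in Menin WT cells. All 3 probes were thus higher in Menin KO cells by nearly the same amount, with log2 differences of 0.38, 0.36 and 0.34, which were 1.68 to 1.86 times the error of the difference. Ccnd3 encodes cyclin D3, the D cyclin that immature T cells need for their expansion in the thymus. Its probe had 36117 in Menin KO cells and 31129 in Menin WT cells, a log2 difference of 0.20, no larger than its error.

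The kinases that D cyclins activate were close on the arrays. Cdk4 had a signal of 6763 in Menin KO cells and 7983 in Menin WT cells, a log2 difference of -0.25. The difference was 1.24 times its error. Cdk6, the partner kinase prominent in blood cells, was read by 2 probes that went opposite ways. The brighter probe had 808 in Menin KO cells and 746 in Menin WT cells, with a log2 difference of 0.10, less than its error. The dimmer probe had 56.7 in Menin KO cells and 75.4 in Menin WT cells, with a log2 difference of -0.42. The mean over both probes was -0.16, so no direction for Cdk6 can be read from these arrays.

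The pocket proteins differed from each other in the size of their difference. Rb1, the retinoblastoma gene, had a probe printed on 10 spots of each array. The Menin KO spots lay between 2895 and 3133 with a median of 3029, and the Menin WT spots between 3349 and 3730 with a median of 3658. No spot of the Menin KO array reached the lowest of the Menin WT array. How many other repeated probes separate in this way was not counted, so the separation is not read as a result about Rb1. The log2 difference was -0.27 ± 0.0311 (SD, n = 10 spots), or 1.20-fold lower in Menin KO cells. It was 1.32 times the scanner software's error of the difference. These spots repeat the printing and hybridisation of 1 RNA sample per genotype, so their scatter is technical. The other Rb1 probe stayed below the detection flag on both arrays (8.97 in Menin KO cells and 14.7 in Menin WT cells) and gave no value.

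Rbl1 encodes p107, a pocket protein made by cycling cells that restrains S phase genes together with E2F4, and is itself known as an E2F-regulated gene. It was read by 1 probe on 1 spot, with a signal of 1108 in Menin KO cells and 2691 in Menin WT cells. The log2 difference of -1.29 was 6.34 times the error of the difference. A more negative difference was found for 2.92% of all named genes.

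The brightest probe of each E2F gene had a lower signal in Menin KO cells, by less than 2-fold, and 1 probe of E2f3 went the other way. E2f2, an activator E2F known in T cells, had a signal of 9093 in Menin KO cells and 15141 in Menin WT cells. Its log2 difference was -0.75, a 1.68-fold lower signal, and 8.84% of named genes were more negative. E2f1, the founding activator of the family, was read by 2 probes.

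The probe of E2f1 that was printed on 10 spots ranged from 400 to 457 in Menin KO cells with a median of 416, and from 597 to 640 in Menin WT cells with a median of 615. The 2 sets of spots did not overlap, which is not read as a result about E2f1, since other repeated probes were not counted. The log2 difference was -0.57 ± 0.0439 (SD, n = 10 spots), or 2.81 times the scanner software's error of the difference. The brighter E2f1 probe, on 1 spot, had 1502 in Menin KO cells and 1931 in Menin WT cells, a log2 difference of -0.38. That difference was 1.84 times its error. The gap between the 2 probes of E2f1 was wider than the spot scatter of the repeated probe, while both placed the gene lower in Menin KO cells and inside the 2-fold limits.

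E2f3 is the third activator of the family and makes 2 proteins from different first exons. The brightest of its 3 probes had a signal of 1954 in Menin KO cells and 2476 in Menin WT cells, a log2 difference of -0.35. A second had 208 in Menin KO cells and 218 in Menin WT cells, a log2 difference of -0.08. The third had 360 in Menin KO cells and 280.04 in Menin WT cells, a log2 difference of 0.35. All 3 carry the same transcript accession, and which part of the transcript each one reads is not known here. The mean over the 3 was -0.03, so the value of E2f3 rests on the choice of probe.

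**Figure D2:**
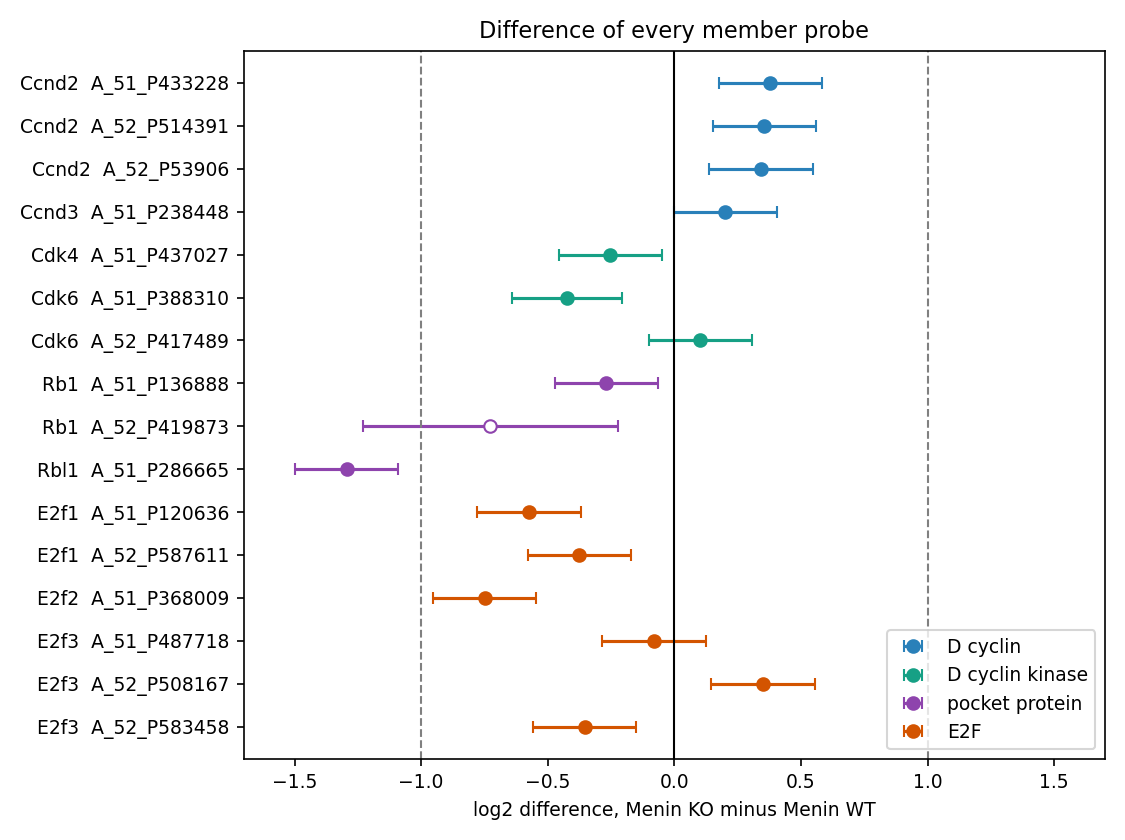
log2 difference (Menin KO minus Menin WT) of each probe of the 9 genes, coloured by role, with the scanner software's error as bars, dashed lines at 2-fold and an open symbol where neither array was well above background. The 3 Ccnd2 probes sit together at 0.34 to 0.38, the 2 Cdk6 probes and the 3 E2f3 probes fall on both sides of 0, and Rbl1 at -1.29 is the only filled point beyond a dashed line.

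**Figure D3:**
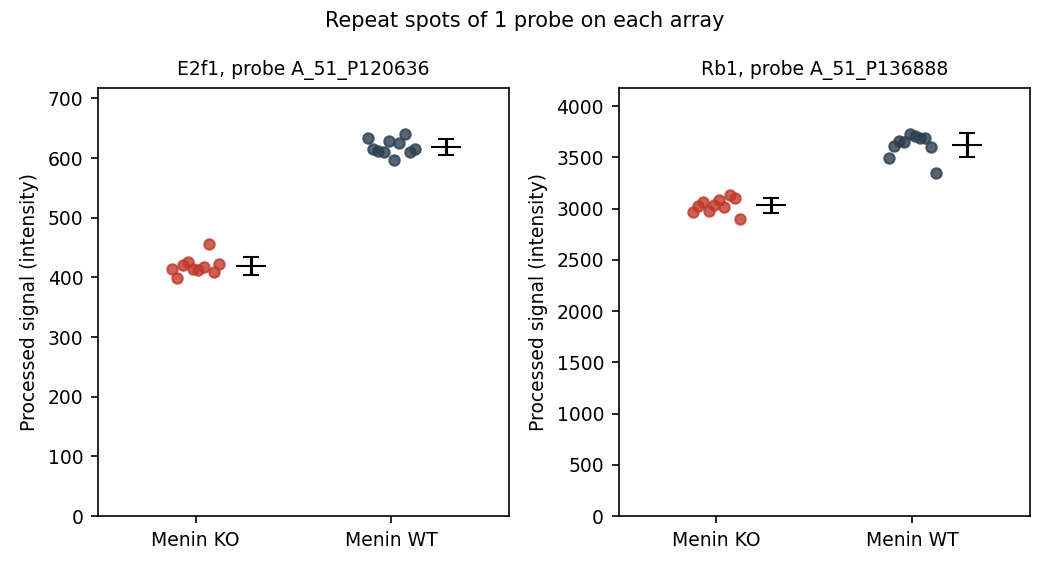
Processed signal of the 10 repeat spots of 1 E2f1 probe and 1 Rb1 probe on the Menin KO array and the Menin WT array, with the mean and SD over spots in black. For both probes the highest Menin KO spot (457 for E2f1, 3133 for Rb1) is below the lowest Menin WT spot (597 and 3349). How many other repeated probes separate in this way was not counted.

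E2F genes and Rbl1 are known to be under E2F control themselves, so their promoters are shown where they hold an E2F word. The windows were RefSeq's, from 250 bases before to 50 after each start (build GRCm38.p6; the arrays' own annotation is on mm9, and no probe position was carried over). They were searched on both strands for TTTCCCGC, TTTCGCGC, TTTGCCGC and TTTGGCGC, 4 spellings of the E2F consensus, none of which contains the other motif searched. Of the members, 7 genes had a window, and 3 of them held a word: Rbl1, E2f2 and E2f3. Over all genes with a window, 704 of 27018 (2.61%) held one, as did 13 of 26 E2F targets. So did 2 of 6 other pocket protein, E2F and DP genes, and 2 of 6 other cyclins, kinases and phosphatases of G1 and S. In the remaining lists the counts were lower: 1 of 6 inhibitors, 1 of 5 DREAM and MuvB genes, 0 of 10 turnover genes and 0 of 8 mitogen inputs. Capitals mark the word. The Rbl1 stretch is the 150 bases before the start (chr2:157204535-157204684, minus strand), with the word from 18 to 11 bases before it. The E2f3 stretch is the 150 bases before its upstream start (chr13:29986064-29986213, minus strand), with the word on the opposite strand, from 11 to 4 bases before it. The E2f2 stretch is 30 bases after its upstream start (chr4:136172294-136172323, plus strand), with the word 40 to 47 bases past it.
Rbl1: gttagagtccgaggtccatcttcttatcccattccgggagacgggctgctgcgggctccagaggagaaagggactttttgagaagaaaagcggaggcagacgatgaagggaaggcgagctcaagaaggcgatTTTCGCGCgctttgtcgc
E2f3: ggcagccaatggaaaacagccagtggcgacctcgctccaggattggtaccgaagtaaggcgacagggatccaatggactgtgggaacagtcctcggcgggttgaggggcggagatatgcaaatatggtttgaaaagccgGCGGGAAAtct
E2f2: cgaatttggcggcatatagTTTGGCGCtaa

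The windows of Ccnd3, Cdk4, Cdk6 and E2f1, and a second window each of E2f2 and E2f3, held none of the 4 spellings. The 3 genes with a word had log2 differences of -1.29 (Rbl1), -0.75 (E2f2) and -0.35 (E2f3, by its brightest probe). Those without one had 0.20 (Ccnd3), -0.25 (Cdk4), 0.10 (Cdk6) and -0.38 (E2f1). A link between an E2F word and the difference was not tested. The word TTTGAA, the cell cycle genes homology region bound by the MuvB complex, was also sought on both strands. It stood in the printed E2f3 stretch, from 23 to 18 bases before the start, and in the second E2f2 window, against 20.2% of all genes with a window.

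The other pocket protein, E2F and DP genes went both ways in Menin KO cells, and none of the 8 was at least 2-fold apart. Rbl2, which encodes p130, the pocket protein of resting cells, had a signal of 798 in Menin KO cells and 451 in Menin WT cells. Its log2 difference was 0.81 by that probe and 0.85 by its other, so p130 and p107 messages lay on opposite sides. E2f4 and E2f5, the repressor E2Fs that pair with p107 and p130, were also higher, with log2 differences of 0.36 and 0.66, the E2f5 signals being dim (127 in Menin KO cells and 80.04 in Menin WT cells). E2f7 and E2f8, atypical repressors made in S phase, were lower at -0.86 and -0.83. The DP partner genes Tfdp1 and Tfdp2 had -0.45 and -0.16, and E2f6, a repressor that works without pocket proteins, had -0.17. The list median was -0.17.

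Inhibitors of the G1 kinases had the widest spread of the lists described. Of 7, 2 were at least 2-fold higher in Menin KO cells and 1 was at least 2-fold lower. Over all named genes these shares were 10.8% and 5.14%. The INK4 genes Cdkn2b, encoding p15 (2685 in Menin KO cells and 125 in Menin WT cells), and Cdkn2a, encoding p16 and ARF (1136 in Menin KO cells and 81.8 in Menin WT cells), were higher, and Cdkn2c, encoding p18, was lower (770.4 in Menin KO cells and 2456 in Menin WT cells). INK4 proteins bind CDK4 and CDK6 in place of a D cyclin. Cdkn2d, the fourth INK4 gene, had a log2 difference of -0.17. Of the CIP/KIP inhibitors, Cdkn1a (p21) had 0.76, Cdkn1b (p27) had -0.83, with -1.10 by its other probe, and Cdkn1c (p57) had 0.32.

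Genes known as E2F targets were lower in Menin KO cells almost throughout. Their list was chosen with earlier results of these data known, so its counts and median describe these arrays and test nothing. Of the 30 with a value, 29 were below 0 and the median log2 difference was -0.78, beside -0.01 over all named genes. The differences were mostly modest: 4 genes reached 2-fold and 26 reached 1.5-fold, always on the lower side. Over all named genes 30% were at least 1.5-fold apart, 12.7% lower and 17.3% higher in Menin KO cells. At 2-fold the shares over all named genes were 5.14% lower and 10.8% higher. Ccna2, cyclin A2 of S phase and G2, had a signal of 6743 in Menin KO cells and 18407 in Menin WT cells (log2 difference -1.46). Chek1, a checkpoint kinase, had -1.11, the mitotic kinase gene Cdk1 had -1.03, with -0.49 by its other probe, and the replication factor gene Mcm10 was 2.01-fold lower. The exception was Ccne1, cyclin E1, with 23997 in Menin KO cells and 21058 in Menin WT cells and a log2 difference of 0.18. Ccne1 was at 0.23 by its other probe, whereas Ccne2, cyclin E2, was at -0.60. With loess on level or with normexp background correction, 1 E2F target was at least 2-fold lower in place of 4, while the list median stayed between -0.86 and -0.73 under the 11 other settings.

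In the list of other cyclins, kinases and phosphatases of G1 and S, 7 of 8 genes were below 0 and the median was -0.47. Ccna2, Ccne1 and Ccne2 belong to this list and to the E2F targets, and Ccna2 was its only gene at least 2-fold lower. The E2F targets also share E2f7 and E2f8 with the pocket protein, E2F and DP list, and Mybl2 with the MuvB list described next. Cdk2, the partner of cyclins E and A, had -0.61 on dim signals (51.9 in Menin KO cells and 78.7 in Menin WT cells), and the activating phosphatase gene Cdc25a had -0.53. In the DREAM complex, p107 or p130 and E2F4 join the MuvB core to repress cell cycle genes. The list of MuvB subunits and their MYB and FOXM1 partners leaves out the pocket protein and E2F genes. In it, 7 of 7 genes with a value were below 0 (median -0.42). Of the DREAM genes left out, described above, Rbl1 (p107) was also below 0, at -1.29, whereas Rbl2 (p130) and E2f4 were above 0. Foxm1, the activator of G2 and M phase genes, had 1174 in Menin KO cells and 3017 in Menin WT cells (log2 difference -1.38). Lin9 and Lin52, subunits of the MuvB core, had -1.05 and -0.45, and Rbbp4, a histone-binding subunit, had -0.42. Foxm1 and Lin9 were the 2 genes of this list at least 2-fold lower, and with loess or normexp the count was 1. Over all named genes 5.14% were at least 2-fold lower.

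Mitogen inputs to D cyclins and genes for the turnover of G1 regulators went both ways. Among 10 mitogen inputs the median was -0.08, with a range from -0.69 to 0.53, and no value reached 2-fold. The low end belongs to Foxo3, whose value is a bound, so whether Foxo3 reached 2-fold is not known. Myc, a driver of cell growth that acts upstream of D cyclins, had -0.05, and the IL-2 receptor chains Il2ra, Il2rb and Il2rg had 0.53, 0.09 and -0.62. Foxo1, which holds T cells in quiescence, had -0.69. Foxo3 was well above background in Menin WT cells only, on dim signals (10.2 in Menin KO cells and 16.6 in Menin WT cells). Its bound was 1.61-fold lower and carries the scatter of dim spots. The list on turnover of G1 regulators had a median of 0.02 over 10 genes, 5 of them below 0 and 5 above. Its member Fbxo4, an F-box protein that targets cyclin D1 for degradation, was at least 2-fold higher, with 5266 in Menin KO cells and 2385 in Menin WT cells (log2 difference 1.13). That was 1 gene of 10, near the 10.8% of all named genes, and is not read as a result about the list. Cks1b, a cofactor in p27 degradation, had -0.74, Fbxw7, which targets cyclin E, had -0.44, and Fzr1, an activator of the anaphase-promoting complex, had -0.35.

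**Figure D4:**
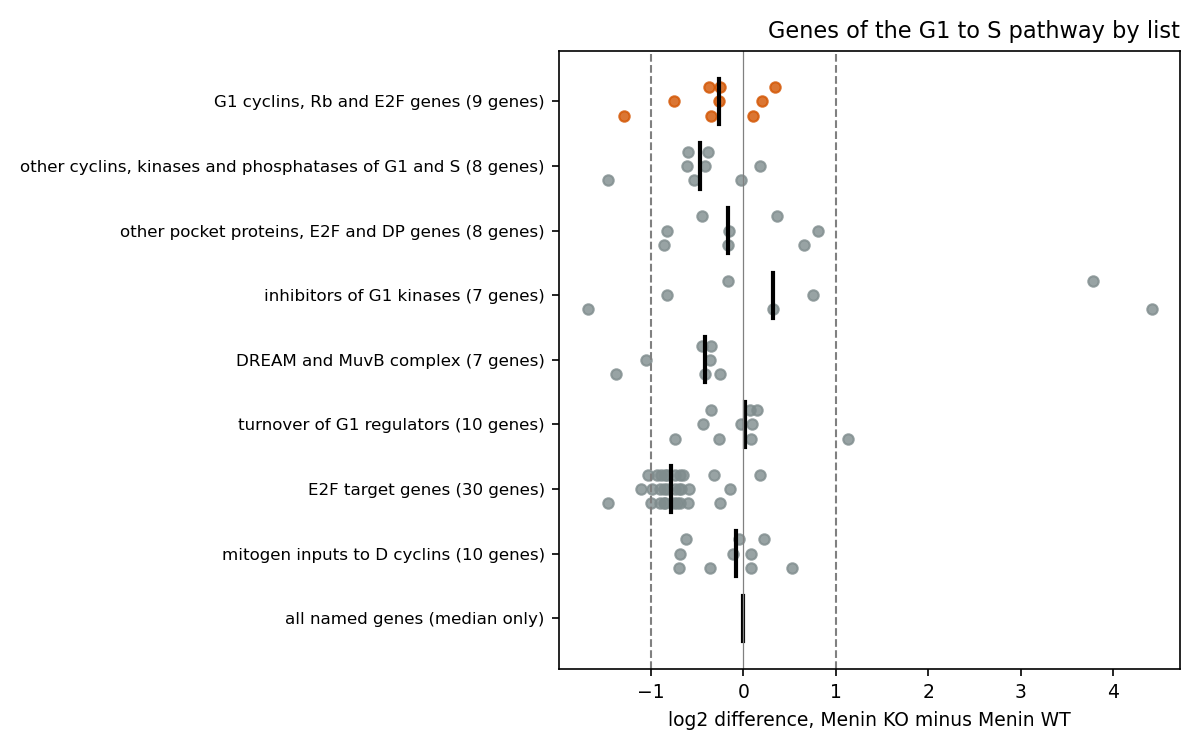
log2 difference (Menin KO minus Menin WT) of each gene with a value in 8 lists, with the list median as a black line and dashed lines at 2-fold. The median of the E2F targets is at -0.78, that of the 9 members at -0.27 and that of all named genes at -0.01, and the inhibitors reach from -1.69 to 4.41.

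Of the T cell markers, Cd3d, Cd3e, Cd3g, Lck and Cd5 were well above background on both arrays, and Cd4 itself, also detected on both, was dim (279 in Menin KO cells and 443 in Menin WT cells). Cd5 was 3.32-fold lower, with 16739 in Menin KO cells and 55133 in Menin WT cells, and was the only 1 of the 6 T cell markers at least 2-fold apart. The 6 signals summed to 129169 in Menin KO cells and 176964 in Menin WT cells. Such a sum follows its brightest probes and does not measure how many cells of a type were present. Markers of other cells differed between the same arrays as well. Over all named genes 10.8% were at least 2-fold higher and 5.14% at least 2-fold lower in Menin KO cells. Cd8a, the only CD8 T cell marker with a value, had 3213 in Menin KO cells and 312 in Menin WT cells. Of 6 natural killer markers 3 were at least 2-fold higher, 1 was lower and 1 was a bound under 2-fold. Their signals summed to 7629 in Menin KO cells and 2196 in Menin WT cells, of which Fcer1g gave 5087 and 669. Of 5 mast cell and basophil markers with a value 3 were higher and 1 was a bound under 2-fold. Their sum was 648 in Menin KO cells and 103 in Menin WT cells. Of 7 macrophage and monocyte markers 3 were higher. Csf1r (-0.39), Mpeg1 (-0.64) and Lyz2 (-0.92, a bound) had log2 differences below 0, and C1qb was at 0.00. The sum was 689 in Menin KO cells and 369 in Menin WT cells. Of 4 B cell markers 1 was higher and 1 was a bound under 2-fold, and they summed to 1593 in Menin KO cells and 899.9 in Menin WT cells. None of the 3 dendritic cell markers with a value reached 2-fold, and they summed to 166 in Menin KO cells and 150.1 in Menin WT cells. Of 3 stromal and endothelial markers none reached 2-fold, 1 being a bound, with a sum of 492 in Menin KO cells and 354 in Menin WT cells. Of 2 erythroid markers Hba-a1 was higher (280 in Menin KO cells and 101 in Menin WT cells). Gata1 was lower (83.8 and 971), and the sum was 364 in Menin KO cells and 1072 in Menin WT cells. Cd8b1, Pax5, C1qa, Ms4a2, Siglech, Hbb-b1 and Cdh5 were among the markers that gave no value. Their part in the differences of the cell cycle genes was not tested.

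Most members' values depended little on the processing, and those of E2f3 and Cdk6 turned on the choice of probe. Under 11 other settings Rbl1 lay between -1.37 and -1.16, always beyond the 2-fold limit, and E2f2 between -0.83 and -0.72. Ccnd2 lay between 0.27 and 0.37, Ccnd3 between 0.12 and 0.24, Cdk4 between -0.33 and -0.22, and Rb1 between -0.35 and -0.22. E2f1 lay between -0.48 and -0.31, E2f3 between -0.43 and -0.03 and Cdk6 between -0.16 and 0.20. All 9 members were brighter than the 75th percentile of their arrays on average, and among the 7070 named genes as bright, 7.6% were at least 2-fold apart and 3.3% at least 2-fold lower in Menin KO cells. Of those genes 1.44% had a more negative difference than Rbl1, 6.56% a more negative one than E2f2, and 17.0% a more positive one than Ccnd2.

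**Figure D5:**
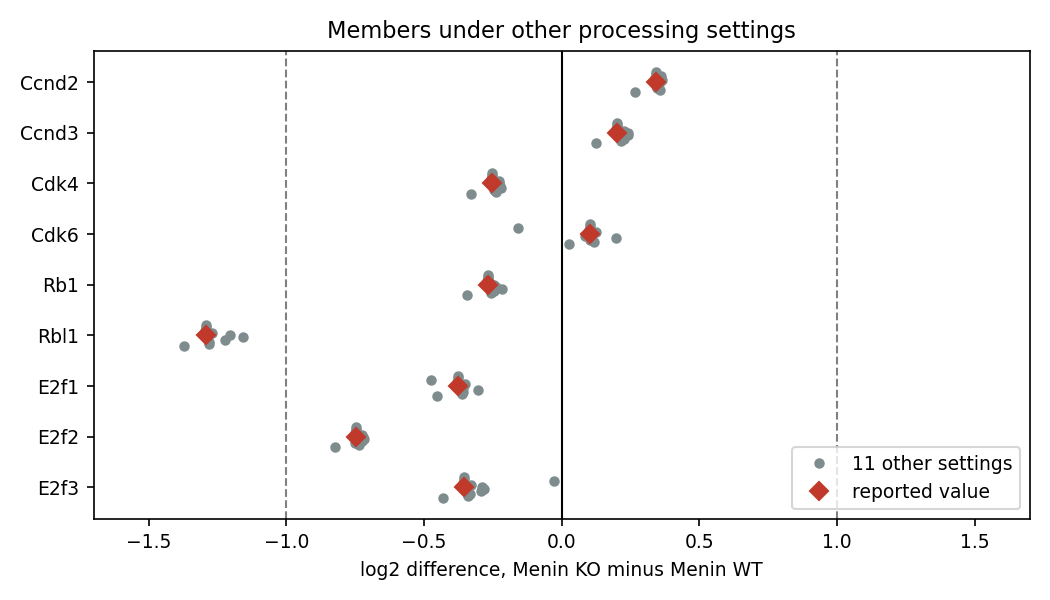
log2 difference (Menin KO minus Menin WT) of each of the 9 genes as reported (diamonds) and under 11 other processing settings (grey points), with dashed lines at 2-fold. Rbl1 stays between -1.37 and -1.16, and Cdk6 is the only gene with points on both sides of 0.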

How the data were processed

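Total RNA (500 ng, Cy3-labelled) of 1 Menin KO and 1 Menin WT culture was hybridised to 2 Agilent 1-colour arrays of 1 slide, read with Feature Extraction 10.7.3.1 per the file headers (10.7 per the submitters' processing notes), with probe annotation on mm9. The intensity is the processed signal the authors deposited, background-subtracted and not scaled between arrays per the file headers. The authors' deposited log2 table was the log2 processed signal minus a constant for 99.7% (Menin KO) and 99.6% (Menin WT) of probes within 0.01, so its scale and direction are known; the medians were -3.90 for Menin KO and -3.97 for Menin WT.

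Outlier-flagged spots (103 in Menin KO, 115 in Menin WT) were left out and no spot was saturated. Of the non-control spots 63.5% (Menin KO) and 59.5% (Menin WT) were well above background, and the number of arrays limits the precision. log2 signals were scaled to the 75th percentile and spots of a probe averaged. RefSeq's GRCm38.p6 table gave 27050 probes at least 1 symbol. A probe with several symbols counts as 1 name among the 18434 named genes and was left out of the gene values. A gene took its brightest probe well above background on at least 1 array. Where the other array was not, the difference is a bound against that array's own value or, where that is higher, the lowest level flagged well above background on it (276 genes had none).

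The comparison, by the genotype label, has no test, and a difference counted when at least 2-fold (log2 of 1). Named genes are all members with every probe, all other pocket protein, E2F and DP genes, all inhibitors, the 4 largest differences of each other list, Men1, Bach2 and cell markers. Ccne1, Myc and Il2rb were picked after their values were seen. The members and lists were chosen with earlier results of these data known. With 2 arrays, likeness of pattern between genes could not be ranked. Alternatives were other scalings, normexp (offset 50, limma 3.58.1, R 4.3.3) on median spot signals, since the files hold no mean spot signal, the authors' values, probe averaging, dim-probe filters, kept outliers and other size rules. The share among genes brighter than the 75th percentile was added after the data were seen. The calculation was checked on data simulated from the Menin WT array with spot noise of SD 0.16. There, all 160 genes shifted 4-fold or 8-fold and 0 of 12506 unshifted genes were at least 2-fold apart. The simulation holds no differences between cultures, and real dim spots scattered more (SD 0.32). It therefore gives no rate of false differences for the real arrays.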

Additional observations from a re-analysis of the deposited data

How the results depend on the processing

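No paired analysis was possible because each genotype has 1 array. No replicate could be left out for the same reason. Of the results on members, lists and all genes, those not given here moved by less than the spot scatter (SD 0.16 on the log2 difference) or, as counts, by at most 1.5 times. With the mean over a gene's probes Cdk6 was at -0.16 and E2f3 at -0.029, since their probes disagree. With loess on level, normexp, or normexp with 6 aberrant Menin WT backgrounds replaced, 1 E2F target and 1 DREAM gene were at least 2-fold lower. After normexp 665 named genes were at least 2-fold higher and 299 lower, and with those backgrounds replaced the counts were 790 and 356. When dim probes were kept, 1113 were lower, and 1 gene of the other G1 and S cyclins was higher. The cause was not tested for loess, normexp or the filter. At 1.5-fold, 2 members were lower, as were 3 other cyclins and kinases, 2 other pocket and E2F genes (2 higher), 2 inhibitors, 1 turnover gene, 26 E2F targets and 3 mitogen inputs, with 2338 named genes higher and 1712 lower. At 4-fold, 0 members, other cyclins, DREAM genes and E2F targets were lower, 0 inhibitors were lower, 0 turnover genes were higher, and 542 named genes were higher and 158 lower. The list medians kept their sign under all 11 settings except that of the turnover list, which kept it under 6 (range -0.06 to 0.12). Repeat spots with signals under 100, the range of Cdk2 and the dimmer Cdk6 probe, scattered with an SD of 0.32 on the log2 difference.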
